A study of Homo sapiens with 4 samples.

Results

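The glycolysis and hypoxia response genes described here are 36 named genes, chosen by symbol from the 58365 rows of the deposited expression table; where a symbol had several rows, the row with the highest mean was kept. The data are 4 RNA-seq libraries from day 8 of hematopoietic differentiation of H1, a long-used line of human embryonic stem cells (hESCs). For all 4 libraries, cells received activinA at 40 ng/ml and BMP4 at 50 ng/ml for 2 days, then VEGF at 40 ng/ml and bFGF at 50 ng/ml for 3 days. For the last 3 days VEGF and bFGF were kept, and SB431542, a small molecule inhibitor of the TGFβ type I receptors, was either present (the SB group, 2 libraries) or left out (the DMSO group, 2 libraries). The study describes the RNA as coming from CD31+ cells, a sort that the sample labels do not give. PECAM1, the gene of CD31, was at 197 and 163 FPKM with DMSO and at 182 and 153 FPKM with SB. FPKM relates the fragments of a gene to the length of its transcript and to the fragments mapped in the library, so that levels can be set side by side between genes.

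Glycolysis splits glucose into pyruvate in the cytosol and yields ATP without oxygen. Glucose enters through the GLUT transporters, is trapped by hexokinase, and passes through a chain of enzymes that exist as isoenzymes in different tissues. Pyruvate is then reduced to lactate or carried into mitochondria, a choice that the pyruvate dehydrogenase kinases govern. In low oxygen the hypoxia-inducible factors (HIFs) escape the prolyl hydroxylases that mark them for destruction by VHL, and they raise the transcription of many of these genes. Hematopoietic stem cells are known for leaning on glycolysis and HIF signaling, and GAPDH, ALDOA, ENO1 and PGK1 are often used as constant reference genes.

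The FPKM of all genes summed to between 570844 and 612614 per library, and between 14183 and 14372 genes reached 1 FPKM. The number of fragments per library is unknown. The estimated relative depth ran from 75.6% to 100% of the deepest library. Pearson's r of log2(FPKM + 1) between pairs of libraries lay between 0.935 and 0.964, across 14909 genes that are not independent replicates. Libraries sharing a replicate number were at 0.960 and 0.964, and libraries sharing a treatment were at 0.956 and 0.961. Since nothing in the labels says that the libraries came from separate cultures, p-values measure only the spread between these samples, which may be technical.

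Levels of the 36 genes covered a wide range on the FPKM scale. GAPDH, which oxidises glyceraldehyde-3-phosphate, was the most abundant, at 2095 and 1675 FPKM with DMSO and at 2414 and 2033 FPKM with SB. ALDOA and ENO1 came next, followed by LDHB, PKM, TPI1 and PGK1. Within every library GAPDH lay above ALDOA, ALDOA above ENO1, ENO1 above LDHB and LDHB above PKM. Across libraries the ranges of ALDOA and ENO1, and those of LDHB and PKM, overlapped. At the lower end, HK2, EGLN3 and ANKRD37 had the lowest means after CA9. CA9, the carbonic anhydrase often used as a marker of hypoxic tissue, was at 0.674 and 0.211 FPKM with DMSO and at 0.528 and 0.277 FPKM with SB, under the minimum mean of 1 FPKM for testing. It was the only member left out of the tests, which covered the other 35.

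**Figure D1:**
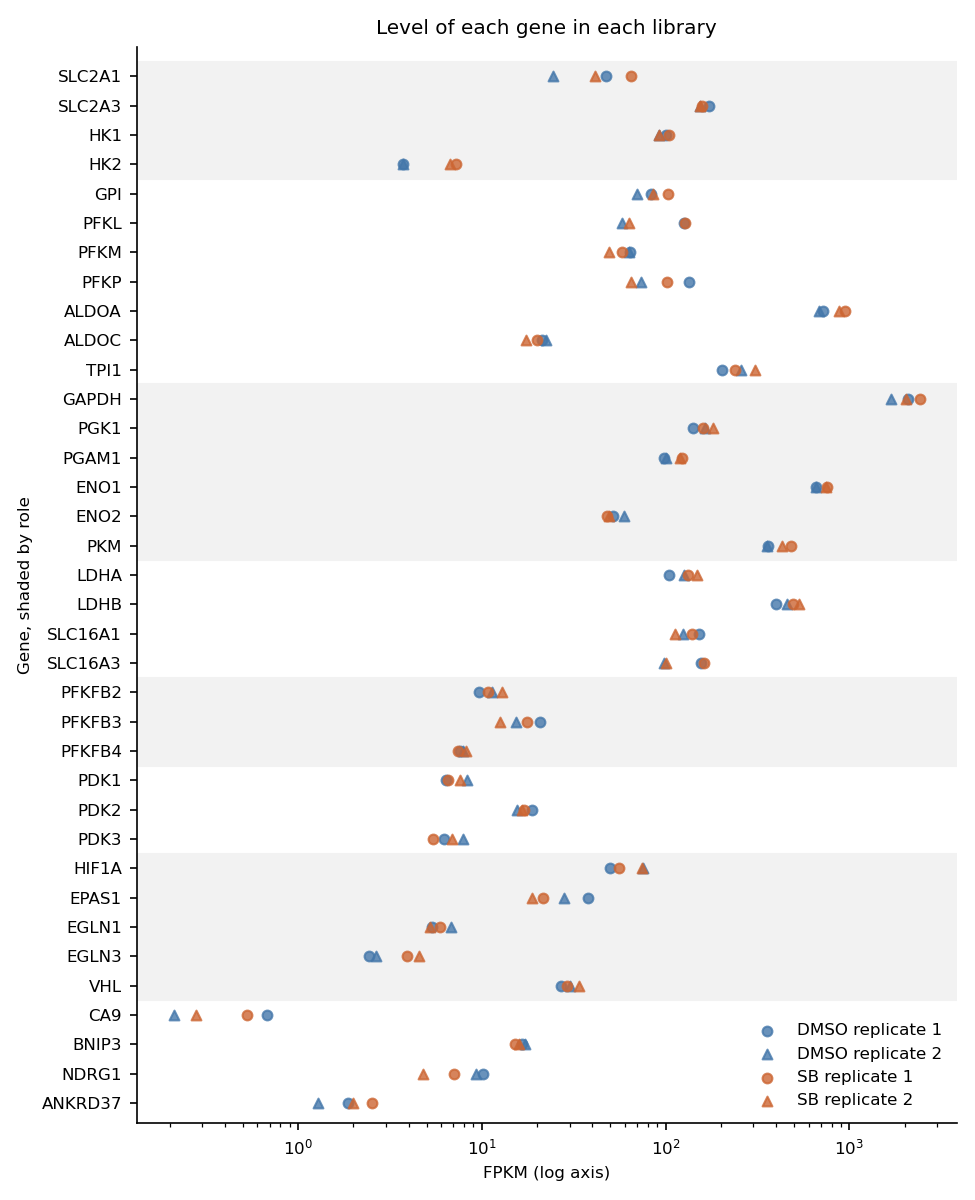
Level of each of the 36 genes in FPKM on a log axis, with 1 point per library (blue for DMSO, orange for SB, circles for replicate 1, triangles for replicate 2) and shading by role. GAPDH is highest at 1675 to 2414 FPKM and CA9 lowest at 0.211 to 0.674 FPKM, and the orange points lie to the right of both blue points for HK2, ALDOA and PKM and to the left for EPAS1 and NDRG1.

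The comparison of SB with DMSO asks whether blocking TGFβ signaling goes with another level of these genes. None of the 35 tested members passed an adjusted p of 0.05 in limma, the linear model fitted here across all genes, with group as the only term. Of all tested genes, 0.134% did (20 of 14909). These counts depend on whether the replicate number enters the fit, as given in the section on the processing. The lowest adjusted p of a member was 0.253, for HK2. At an unadjusted p under 0.05, 2 members were higher with SB (HK2 and EGLN3), where 4.8% of all tested genes were, and 2 were lower (EPAS1 and NDRG1), where 5.16% of all tested genes were. In 10 of 35 members both SB libraries lay above both DMSO libraries, against 21.5% of all tested genes. In 6 members both lay below, against 16% of all tested genes. The median difference, SB minus DMSO, was 0.06 for the members and 0.04 for all tested genes on the log2(FPKM + 1) scale, on which every difference below is also given. The largest difference of a member in either direction was 0.75.

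The 10 members with both SB libraries above were HK2, GPI, ALDOA, PGAM1, ENO1, PKM, LDHA, LDHB, EGLN3 and ANKRD37, 8 of them enzymes of the path from glucose to lactate. The 6 with both SB libraries below were PFKM, ALDOC, ENO2, EPAS1, BNIP3 and NDRG1. PFKM, ALDOC and ENO2 share their step with another member, as do HK2, ALDOA, ENO1, LDHA and LDHB among the higher ones. When the 2 libraries of each replicate number were compared with each other, 19 of 35 members were higher with SB in both numbers, where 40.9% of all tested genes were, and 10 were lower in both, where 30.6% of all tested genes were. The 6 others changed sign between the numbers. SLC2A3, PFKFB4, PDK1, PDK2, HIF1A and EGLN1 are those 6.

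**Figure D2:**
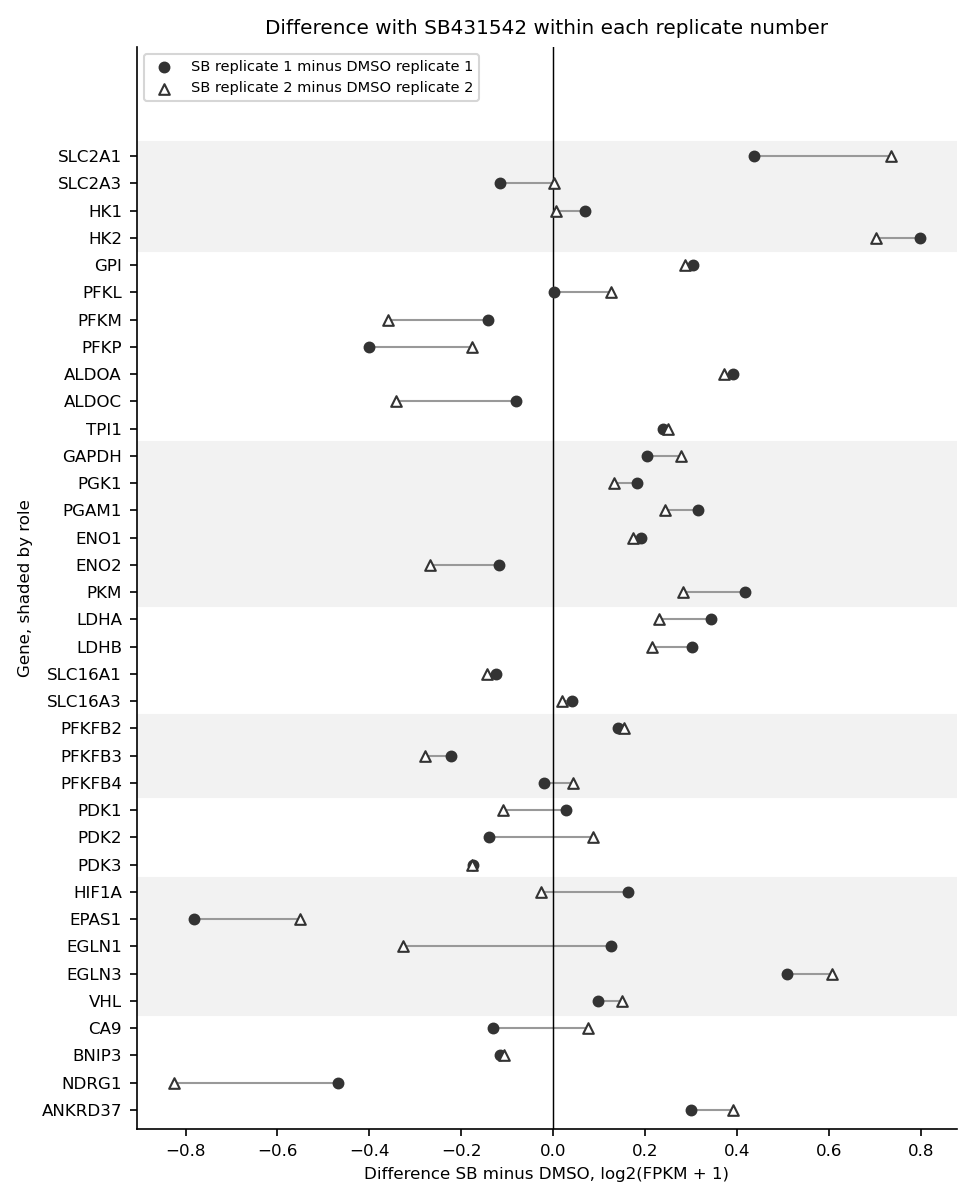
Difference SB minus DMSO of each of the 36 genes on the log2(FPKM + 1) scale within replicate 1 (filled circles) and within replicate 2 (open triangles), joined by a line and shaded by role; CA9 is drawn but was not tested. HK2 lies at 0.80 and 0.70 and EPAS1 at -0.78 and -0.55, while the pair of EGLN1 lies on both sides of 0.

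Because HIFs bind the core letters ACGTG or GCGTG, promoters of these genes were read for them. RefSeq promoter windows on GRCh38.p14, from 250 bases before to 50 after the start of a gene, were matched by symbol for 31 of the 36 members. Where a symbol had several windows, the first one listed was used, so other starts of the same gene were not read. Either core, on either strand, was found in 22 of 31 member windows (71.0%). With 1 window per symbol, as for the members, it was found in 63.1% of the 10206 windows matched to tested genes. It was found in 48.4% of all 35116 windows, a set not reduced to 1 per symbol or to tested genes. Matches that share bases were counted separately. Of the members with both SB libraries above, 8 of 10 windows held a core, and of those with both below, 4 of 5 did. Windows with a core were thus found on both sides. A match is a description of the letters, not a binding site. For the members whose groups did not overlap, 30 bases around the core nearest before the start are shown 5′ to 3′ on the strand of the gene, with the core, or its reverse complement CACGT or CACGC, in capitals. The first 6 stand for members higher with SB and the last 4 for members lower with SB. No window was matched for SLC2A3, SLC16A1, PFKFB2, VHL and NDRG1.
HK2: aatggGCGTGcgCACGTcactgatccggag
GPI: acactgcctgtaACGTGgaaggtgttcgat
ALDOA: ccttcccctccaCACGTcaacgattctatt
ENO1: ggagctgaggggGCGTGccccggaggcggg
LDHA: cgtgggttcccgCACGTccgccggcccccc
ANKRD37: cagtgtttgtgtACGTGcggccgtggcggg
ALDOC: ccccggaggagtCACGTagctctgcgacat
ENO2: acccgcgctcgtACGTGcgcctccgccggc
EPAS1: gggcctgccggcGCGTGcccgcccacacac
BNIP3: CACGCccctgcgCACGCgcaggccccaagt

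These stretches lie at chr2:74834067-74834096 (HK2), chr19:34364818-34364847 (GPI), chr16:30064089-30064118 (ALDOA), chr1:8878741-8878770 (ENO1, minus strand), chr11:18394478-18394507 (LDHA) and chr4:185396686-185396715 (ANKRD37). Those of the lower members lie at chr17:28576906-28576935 (ALDOC, minus strand), chr12:6914450-6914479 (ENO2), chr2:46297278-46297307 (EPAS1) and chr10:131982010-131982039 (BNIP3, minus strand), and all without a stated strand are on the plus strand. LDHA, which makes lactate from pyruvate, held 5 cores before its start, as did ALDOC, and BNIP3 held 6. In the windows of PFKM, PGAM1 and EGLN3, whose groups did not overlap either, neither core was found. In those of PKM and LDHB the core lay only after the start.

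Glucose uptake and phosphorylation was read from 4 members. HK2, the inducible hexokinase of growing cells, was at 3.75 and 3.73 FPKM with DMSO and at 7.25 and 6.69 FPKM with SB. Both SB libraries were above both DMSO libraries, and the values of each group lay close together. Its mean stood 86.6% higher with SB, at 6.97 ± 0.395 FPKM against 3.74 ± 0.0130 FPKM (SD, n = 2 each), and the difference of 0.75 had a standard error of 0.17. With an unadjusted limma p of 0.00704 and an adjusted p of 0.253 it did not pass the threshold. The gene spans chr2:74833981-74893359 on GRCh38, and the stretch printed above holds 2 cores near its RefSeq start. On the opposite strand it overlaps the long noncoding gene AC019069.1, which was at 2.69 and 3.54 FPKM with DMSO and at 4.8 and 5.58 FPKM with SB. Strand use in the counting is not given in the sources used here, so reads of HK2 and AC019069.1 cannot be told apart where they overlap.

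HK1, the hexokinase found in most tissues, stood at 99.9 and 91.9 FPKM with DMSO and at 105 and 92.3 FPKM with SB. Its groups overlapped, and its difference of 0.04 turned to below 0 with upper-quartile scaling. Of the summed FPKM of HK1 and HK2, HK2 held 3.61% and 3.90% with DMSO and 6.47% and 6.76% with SB. The share of HK2 was thus higher in both SB libraries, and HK1 held at least 93.2% in every library.

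SLC2A1, which encodes the glucose transporter GLUT1, was at 47.4 and 24.2 FPKM with DMSO and at 64.6 and 41.0 FPKM with SB. Replicate 1 exceeded replicate 2 within each treatment, so that the groups overlapped although SB was higher within each replicate number, by 0.44 and 0.74. The pooled difference was 0.59 with a standard error of 0.40 and an adjusted p of 0.760, and it was 0.12 without DMSO replicate 2 and 1.06 without DMSO replicate 1. SLC2A3, which encodes the high-affinity transporter GLUT3, was the more abundant of the pair, at 172 and 155 FPKM with DMSO and at 158 and 155 FPKM with SB. Its difference of -0.06 changed sign between replicate numbers. SLC2A1 held 21.6% and 13.6% of the summed FPKM of both transporters with DMSO and 28.95% and 21.0% with SB, ranges that overlapped.

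In upper glycolysis, ALDOA had the largest difference. ALDOA, the aldolase that splits fructose-1,6-bisphosphate, was at 718 and 679.6 FPKM with DMSO and at 942 and 879 FPKM with SB. All SB values lay above all DMSO values. Its mean stood 30.4% higher with SB, at 911 ± 44.6 FPKM against 699 ± 27.0 FPKM (SD, n = 2 each), with a difference of 0.38 (standard error 0.15) and a limma adjusted p of 0.508. The second aldolase, ALDOC, was on the other side, at 21.2 and 22.4 FPKM with DMSO and at 19.985 and 17.5 FPKM with SB. Its difference was -0.21 (standard error 0.17), with a limma adjusted p of 0.799. ALDOC overlaps AC005726.1 on the same strand, which was at 8.52 and 3.37 FPKM with DMSO and at 6.80 and 3.04 FPKM with SB. The split of reads between ALDOC and AC005726.1 is uncertain. The ratio of ALDOA to ALDOC was 33.9 and 30.3 with DMSO and 47.2 and 50.4 with SB, and ALDOC held 2.87% and 3.19% of all aldolase FPKM with DMSO and 2.08% and 1.95% with SB. Neither the ratio nor the share overlapped between the groups, and ALDOA made up at least 96.8% of aldolase FPKM in every library.

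GPI, which turns glucose-6-phosphate into fructose-6-phosphate, stood at 82.8 and 69.7 FPKM with DMSO and at 102 and 85.2 FPKM with SB. The groups did not overlap, but DMSO replicate 1 and SB replicate 2 lay close together. Its difference was 0.30 with an adjusted p of 0.751. TPI1, the triose phosphate isomerase, was at 202 and 258 FPKM with DMSO and at 239 and 307 FPKM with SB. Here replicate 2 was the higher one in each treatment, so the groups overlapped, and within the replicate numbers SB was higher by 0.24 and 0.25.

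The 3 phosphofructokinase-1 genes, which encode the subunits of the committed step, differed from each other. PFKL was at 127 and 57.6 FPKM with DMSO and at 127 and 63.0 FPKM with SB. It followed the replicate number, with a difference between replicate 2 and replicate 1 of -1.06 beside a treatment difference of 0.06. PFKP was at 134 and 73.3 FPKM with DMSO and at 102 and 64.8 FPKM with SB, and lay lower with SB within both numbers, by -0.40 and -0.18. PFKM was at 64.1 and 63.3 FPKM with DMSO and at 58.0 and 49.1 FPKM with SB. Its groups did not overlap, with a difference of -0.25 and an adjusted p of 0.760. The sum of the 3 genes was 325 and 194 FPKM with DMSO and 286 and 177 FPKM with SB, which is lower with SB within each number while the groups overlapped. PFKL held 38.9% and 29.7% of that sum with DMSO and 44.3% and 35.6% with SB.

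**Figure D3:**
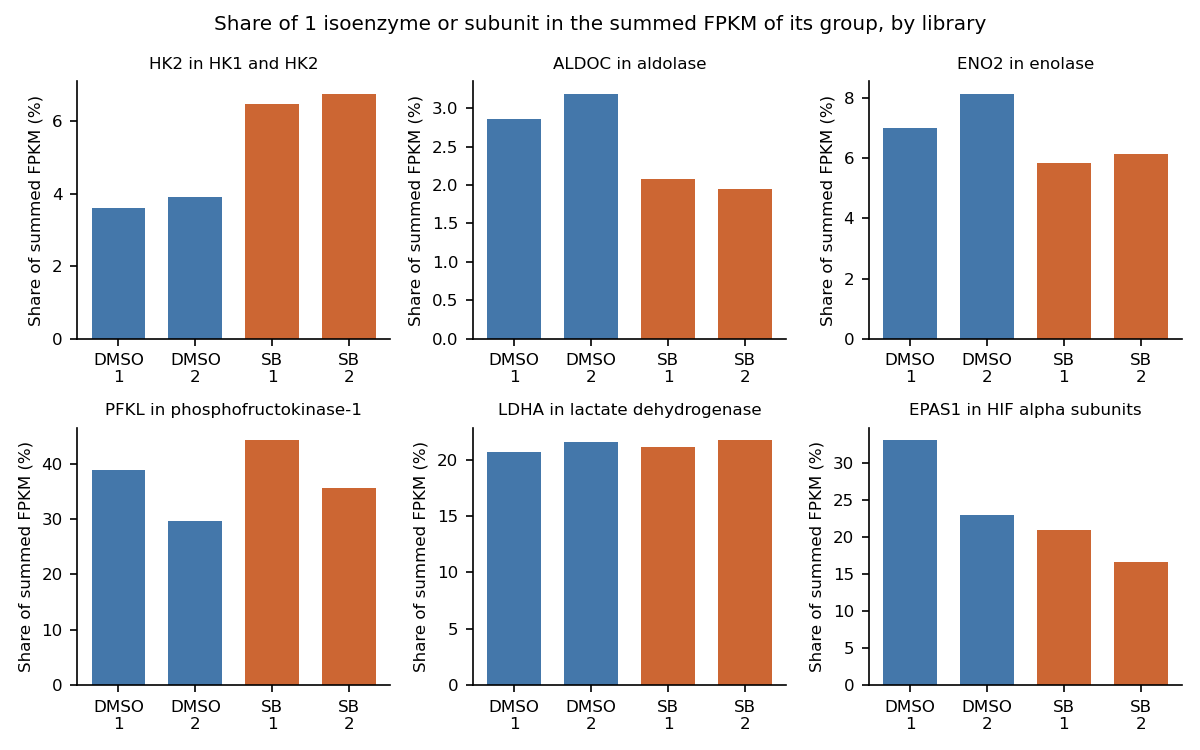
Share of 1 gene in the summed FPKM of its enzymatic step or subunit family (for HK2, of HK1 and HK2), in percent, with 1 bar per library (blue for DMSO, orange for SB) and axes from 0. The groups do not overlap for HK2 (3.61% and 3.90% against 6.47% and 6.76%), ALDOC, ENO2 and EPAS1, and they overlap for PFKL and for LDHA, which stays between 20.7% and 21.7%.

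In lower glycolysis, 5 of 6 members were higher with SB within both replicate numbers, beside 40.9% of all tested genes. GAPDH had a difference of 0.24 with an adjusted p of 0.799, and its groups overlapped because SB replicate 2 lay under DMSO replicate 1. Without DMSO replicate 2 that difference was 0.08, and without DMSO replicate 1 it was 0.40. PKM, the pyruvate kinase of most tissues other than liver and red cells, was at 359 and 355 FPKM with DMSO and at 479.9 and 432 FPKM with SB. Both SB libraries lay above both DMSO libraries, by 27.7% in the mean, with a difference of 0.35 (standard error 0.15) and an adjusted p of 0.571. PGAM1, the phosphoglycerate mutase, was at 98.5 and 101 FPKM with DMSO and at 123 and 119.8 FPKM with SB. Its 2 libraries of each group lay close together, with a difference of 0.28 and an adjusted p of 0.679. PGK1, the first ATP-yielding enzyme of the path, was at 141 and 165 FPKM with DMSO and at 160.4 and 180.5 FPKM with SB. Its groups overlapped.

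The enolases, like the aldolases, were on opposite sides of 0. ENO1 was at 661 and 657 FPKM with DMSO and at 755 and 742 FPKM with SB, a difference of 0.18 with a standard error of 0.14 and an adjusted p of 0.798. ENO2, known as neuron-specific enolase, was at 51.8 and 59.5 FPKM with DMSO and at 47.7 and 49.3 FPKM with SB, a difference of -0.19 with a standard error of 0.16 and an adjusted p of 0.820. Neither gene's groups overlapped. ENO1 held 89.4% and 90.1% of enolase FPKM with DMSO and 92.3% and 92.4% with SB, and ENO2 held 7.004% and 8.16% with DMSO and 5.83% and 6.14% with SB. The promoter stretches of both genes shown above hold a core.

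LDHA and LDHB, the subunits of lactate dehydrogenase, had differences of the same sign and of similar size. LDHA was at 104 and 125 FPKM with DMSO and at 133 and 147 FPKM with SB, with a difference of 0.29 and an adjusted p of 0.739. LDHB, the subunit of oxidative tissues such as heart, was at 400.2 and 456 FPKM with DMSO and at 494 and 530.0 FPKM with SB, with a difference of 0.26 and an adjusted p of 0.738. For both genes the SB libraries lay above the DMSO libraries. LDHA made up 20.7% and 21.5% of lactate dehydrogenase FPKM with DMSO and 21.2% and 21.7% with SB, and these shares overlapped. SLC16A1 (MCT1), a carrier of lactate and pyruvate, was at 153 and 124 FPKM with DMSO and at 139.8 and 112 FPKM with SB. SLC16A3 (MCT4), the carrier known for lactate export, was at 156 and 98.5 FPKM with DMSO and at 161 and 99.9 FPKM with SB. The groups of both carriers overlapped, and replicate 1 was the higher one in each treatment. SLC16A3 overlaps CSNK1D on the opposite strand, which was at a mean of 95.3 FPKM.

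The bifunctional PFKFB enzymes, which set the level of the phosphofructokinase-1 activator fructose-2,6-bisphosphate, had small differences. PFKFB3 was at 20.6 and 15.4 FPKM with DMSO and at 17.5 and 12.5 FPKM with SB, a difference of -0.25 with an adjusted p of 0.857, which was -0.02 without SB replicate 2 and -0.48 without SB replicate 1. PFKFB2 ranged from 9.69 to 12.8 FPKM with a difference of 0.15, and PFKFB4 ranged from 7.46 to 8.20 FPKM with a difference of 0.01. The groups of all 3 overlapped, and in all 3 the replicate numbers did not. PFKFB2 overlaps YOD1 on the opposite strand, which was at a mean of 10.2 FPKM.

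The pyruvate dehydrogenase kinases, which turn off the entry of pyruvate into the TCA cycle, were at 5.43 to 18.8 FPKM. PDK1, a HIF target, had a difference of -0.04, PDK2 one of -0.03 and PDK3 one of -0.18, with adjusted p-values of at least 0.890. All 3 groups overlapped. PDK2 held between 47.8% and 58.3% of the summed FPKM of PDK1 to PDK4. It overlaps SAMD14 on the opposite strand, which was at a mean of 31.7 FPKM beside 17.0 FPKM for PDK2. Reads of the overlap cannot be told apart, so this share is uncertain.

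The HIF alpha subunits differed from each other. EPAS1, which encodes HIF-2α and is known from endothelial cells, was at 37.9 and 27.8 FPKM with DMSO and at 21.6 and 18.7 FPKM with SB. Both SB libraries lay below both DMSO libraries, a difference in means of -38.7%, at 20.2 ± 2.06 FPKM against 32.9 ± 7.11 FPKM (SD, n = 2 each). The difference was -0.67 (standard error 0.22), with -0.78 and -0.55 within the replicate numbers, an unadjusted limma p of 0.0289 and an adjusted p of 0.424. HIF1A was at 49.6 and 75.3 FPKM with DMSO and at 55.7 and 74.0 FPKM with SB. It followed the replicate number, by 0.50, and its treatment difference was 0.07. The ratio of EPAS1 to HIF1A was 0.764 and 0.370 with DMSO and 0.388 and 0.253 with SB, so that SB replicate 1 lay above DMSO replicate 2. EPAS1 held 33.1% and 23.0% of the summed FPKM of HIF1A, EPAS1 and HIF3A with DMSO and 21.0% and 16.6% with SB. EPAS1 spans chr2:46293667-46386703.

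Among the regulators of HIF stability, EGLN3, the prolyl hydroxylase PHD3, itself a HIF target, was at 2.44 and 2.65 FPKM with DMSO and at 3.90 and 4.56 FPKM with SB. The groups did not overlap, and the mean stood 66.1% higher with SB, with a difference of 0.56 (standard error 0.19), an unadjusted limma p of 0.0312 and an adjusted p of 0.436. EGLN3 overlaps SPTSSA on the same strand, which was at 19.5 and 22.9 FPKM with DMSO and at 23.3 and 27.0 FPKM with SB. The split of reads between EGLN3 and SPTSSA is uncertain. EGLN1, the main oxygen-sensing hydroxylase PHD2, was at 5.35 and 6.82 FPKM with DMSO and at 5.93 and 5.23 FPKM with SB, and its groups overlapped. VHL, the substrate-binding part of the ligase that degrades HIF alpha, was at 27.1 and 30.3 FPKM with DMSO and at 29.1 and 33.7 FPKM with SB, and its groups overlapped as well.

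The other hypoxia response genes had no common direction. NDRG1, a stress-response gene known to be raised in low oxygen, was at 10.1 and 9.29 FPKM with DMSO and at 7.05 and 4.81 FPKM with SB. Both SB libraries lay below both DMSO libraries, with a difference of -0.65 (standard error 0.22), an unadjusted limma p of 0.0349 and an adjusted p of 0.451. BNIP3, a mitophagy receptor, was at 16.5 and 17.2 FPKM with DMSO and at 15.2 and 15.9 FPKM with SB. Its groups did not overlap, but the difference was only -0.11. Its 38 pseudogene rows summed to 15.0% of its own level, and the split of reads between BNIP3 and these copies is uncertain. ANKRD37, a small HIF-1 target, was at 1.87 and 1.28 FPKM with DMSO and at 2.53 and 1.99 FPKM with SB, with a difference of 0.34 and an adjusted p of 0.759. It overlaps UFSP2 on the opposite strand, which was at a mean of 12.2 FPKM. Pseudogene rows of GAPDH, LDHA and TPI1 summed to 0.370%, 1.02% and 1.87% of the level of their gene.

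Replicate number was as large a source of spread as treatment. In 18 of 35 members the libraries of replicate 1 and replicate 2 did not overlap, where 52.6% of all tested genes did not. In 18 of 35 members the difference between replicate numbers was larger than that between treatments, as it was in 57.3% of all tested genes. PFKL, SLC2A1, PFKP and SLC16A3 were lower in replicate 2, by -1.06, -0.79, -0.75 and -0.67, and HIF1A was higher, by 0.50. The difference between replicate numbers went with the GC content of the transcripts, with a Spearman correlation of -0.65 across 14880 genes and of -0.69 across the 35 tested members. PFKL and SLC16A3 had a GC content of 64.4% and 66.0%, SLC2A1 and PFKP one of 57.7% and 58.0%, and HIF1A one of 41.0%. ALDOA, at 60.1%, differed by only -0.09 between the replicate numbers, so single genes did not all follow their GC content. For the difference between treatments the same correlations were -0.12 and -0.01. These correlations run over genes that share the same 4 libraries and are a description.

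**Figure D4:**
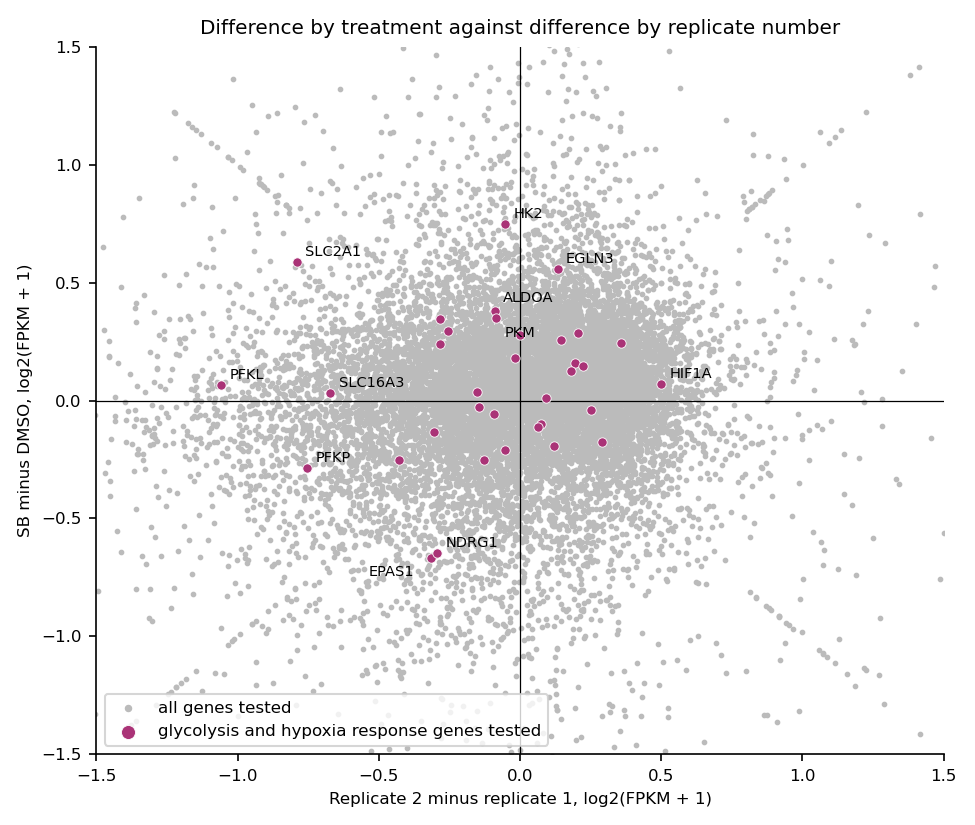
Difference between treatments (vertical, SB minus DMSO) against difference between replicate numbers (horizontal, replicate 2 minus replicate 1) on the log2(FPKM + 1) scale, with 35 members in purple and all tested genes in grey; 315 genes beyond 1.5 on either axis fall outside the plot. PFKL at -1.06 and SLC2A1 at -0.79 lie far to the left, and HK2, at 0.75, is the highest member.

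The rest of the pathway was read from 6 further lists of 110 genes, of which 89 were tested, and 0 of them passed the adjusted threshold in limma, while 12 of 89 had an unadjusted p under 0.05, where 9.96% of all tested genes had one. Among the other glycolytic isoenzymes and regulators, 10 of 27 genes were tested, with a median difference of -0.05. SLC16A7 (MCT2) was at 0.769 and 1.07 FPKM with DMSO and at 1.61 and 1.89 FPKM with SB. Its difference was 0.52, with a limma adjusted p of 0.556. The mean of SLC16A7 with DMSO was 0.920 FPKM, so it passed the minimum for testing only through the SB group. SLC2A14 (GLUT14), a close paralog of SLC2A3 between which the split of reads is uncertain, was at 1.75 and 1.91 FPKM with DMSO and at 1.03 and 1.15 FPKM with SB, a difference of -0.44 with an adjusted p of 0.608. TIGAR, a fructose-2,6-bisphosphatase, had a difference of -0.33 with an adjusted p of 0.646. PDK4 was under the minimum for testing, at 0.890 and 0.854 FPKM with DMSO and at 0.165 and 0.271 FPKM with SB.

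The lists that follow pyruvate or branch off before it had medians above that of all genes. The 9 genes of pyruvate entry into mitochondria had a median difference of 0.21, the 16 of the TCA cycle one of 0.16 and the 7 of the pentose phosphate pathway one of 0.14, where all tested genes had 0.04. MPC1, a subunit of the mitochondrial pyruvate carrier, was at 10.4 and 12.2 FPKM with DMSO and at 19.6 and 18.4 FPKM with SB. Its groups did not overlap, with a difference of 0.70 and an adjusted p of 0.288. TALDO1, the transaldolase of the pentose phosphate pathway, was at 84.5 and 90.6 FPKM with DMSO and at 131 and 134 FPKM with SB, with a difference of 0.59 and an adjusted p of 0.311. In the TCA cycle, 13 of 16 genes were higher with SB in both replicate numbers, beside 40.9% of all tested genes, and OGDH had the smallest p, with a difference of 0.36 and an adjusted p of 0.710. SB libraries lay above DMSO libraries in 3 of 9, 3 of 16 and 3 of 7 genes of these lists, beside 21.5% of all tested genes.

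Among 11 tested genes of other HIF pathway components, the median difference was 0.05. HIF1AN, the asparaginyl hydroxylase that blocks HIF activity, was at 16.7 and 15.6 FPKM with DMSO and at 9.97 and 12.6 FPKM with SB, a difference of -0.49 with an adjusted p of 0.501. ARNT, the HIF beta subunit, had a difference of -0.33 with an adjusted p of 0.624. Among 36 tested other hypoxia targets, both SB libraries lay below both DMSO libraries in 10, beside 16% of all tested genes, and above in 3, beside 21.5%, and the median difference was -0.09. ANGPTL4, a secreted inhibitor of lipoprotein lipase, was at 21.4 and 20.5 FPKM with DMSO and at 7.02 and 6.92 FPKM with SB. Its difference of -1.46 (standard error 0.16) was the largest of the 6 lists, with an adjusted p of 0.0803. P4HA2, a collagen prolyl hydroxylase, was at 12.9 and 12.4 FPKM with DMSO and at 5.99 and 5.80 FPKM with SB, a difference of -0.99 with an adjusted p of 0.151. PPFIA4 had a difference of -0.75 with an adjusted p of 0.322, and HMOX1, the heme oxygenase, had one of 0.69 with an adjusted p of 0.270. A core was found in 25 of 30 promoter windows matched for these targets (83.3%).

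**Figure D5:**
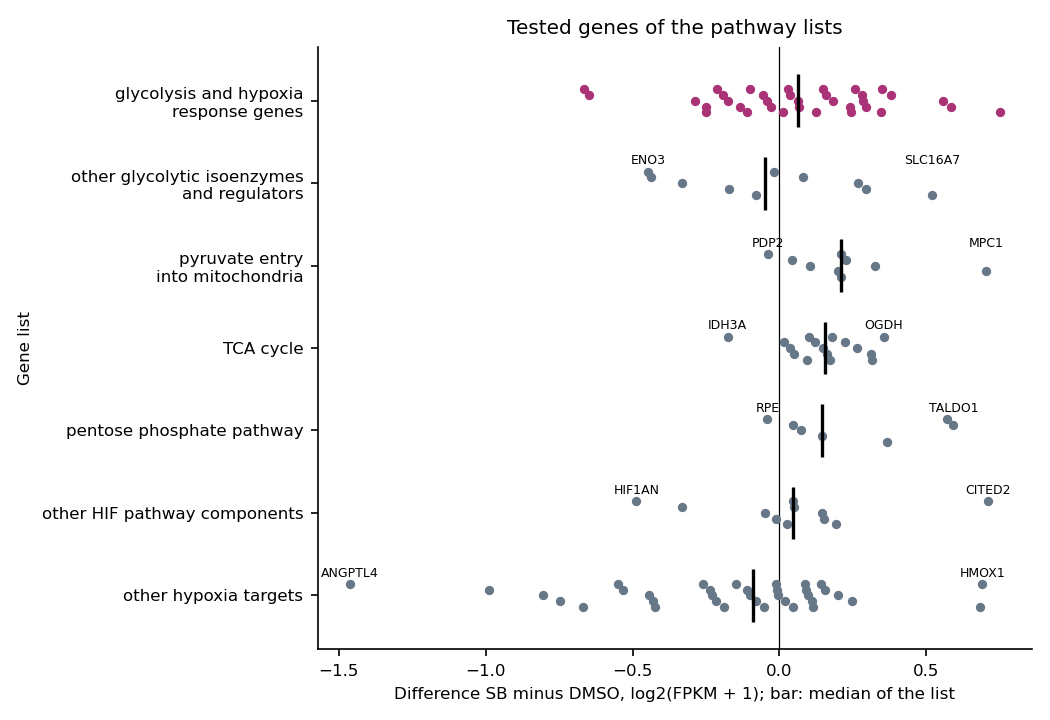
Difference SB minus DMSO on the log2(FPKM + 1) scale for each tested gene of the 36 glycolysis and hypoxia response genes (purple) and of the 6 other lists (grey), with a black bar at the median of each list. The members run from -0.67 to 0.75 around a median of 0.06, and the other hypoxia targets run from -1.46 (ANGPTL4) to 0.69 (HMOX1).

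Markers of several cell types also lay apart between the groups. For comparison, both SB libraries lay above both DMSO libraries in 21.5% of all tested genes and below in 16%. Within both replicate numbers, 40.9% of all tested genes were higher with SB. In bulk RNA fewer cells of a type and less RNA per cell cannot be told apart. Both SB libraries lay above both DMSO libraries in 8 of 8 megakaryocyte genes, whose FPKM summed to 299.8 to 309.7 with DMSO and to 750.4 to 842 with SB, and in 7 of 7 tested hematopoietic genes, at 223 to 232 and 366 to 369.8 FPKM. They lay below in 8 of 9 tested endoderm and liver genes, at 289 to 331 FPKM with DMSO and 30.8 to 34.1 FPKM with SB, in 7 of 7 tested mesenchymal genes, at 333 to 371 and 173 to 175 FPKM, and in 7 of 11 tested erythroid genes, at 1750.1 to 2111 and 1408 to 1730 FPKM. Of all these markers, AFP, APOA1, APOA2 and TTR of the endoderm and liver list passed the adjusted threshold, all lower with SB. The 10 endothelial genes summed to 1718 to 1950 FPKM with DMSO and to 1659 to 1892 FPKM with SB, ranges that overlapped. In 2 of these 10 genes, ROBO4 and CDH5, both SB libraries lay below both DMSO libraries, with differences of -1.09 and -0.28. In 1, EMCN, they lay above, with a difference of 0.06. The limma adjusted p of ROBO4 was 0.135. Within both replicate numbers, 6 endothelial genes were lower with SB and 2 were higher. The 10 cell cycle genes were higher with SB in both replicate numbers, at 234 to 277 FPKM with DMSO and 343 to 371 FPKM with SB. Of 4 tested cardiac genes, 3 lay below and 1 above with SB, with a median difference of -0.86. NKX2-5 was at 45.3 and 21.9 FPKM with DMSO and at 10.4 and 5.23 FPKM with SB, and MYL4, the one above, was at 61.5 and 79.5 FPKM with DMSO and at 91.8 and 111 FPKM with SB. The sums of all 8 cardiac genes, 108 to 113 and 104 to 118 FPKM, overlapped, with MYL7, MYL3 and TNNT2, like the erythroid SLC4A1, listed at 0 in 1 SB library each. The pluripotency genes summed to 70.6 to 90.6 and 93.8 to 115 FPKM, with POU5F1, SOX2 and NANOG under 2 FPKM in every library. LIN28A, the most abundant of them, was at 42.6 and 51.0 FPKM with DMSO and at 65.2 and 76.0 FPKM with SB. The groups of DPPA4 overlapped, and TDGF1 was on the other side, at 0.804 and 1.31 FPKM with DMSO and at 0.224 and 0.298 FPKM with SB. Some of the markers counted or named here reached the minimum mean of 1 FPKM for testing in 1 group only. APOB, FOXA2, SERPINA1, FGB, MYL7, ACTN2 and TDGF1 did so with DMSO, and PPBP and POU5F1 did so with SB. For these genes the filter favors the direction seen, so the counts are not independent of it. The part of these cell types in the differences of the glycolysis and hypoxia response genes was not tested.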

How the data were processed

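The authors deposited 1 table of FPKM values for 4 RNA-seq libraries, with no scaling between libraries stated; sequencing was done by a service company. The submitters' processing notes name hg19, BWA, Bowtie and RSEM without roles or versions. The loci in the deposited table are those of GRCh38, since 95.5% of identifiers were found with their version in GENCODE release 29 and 99.8% of these rows had the same position; coordinates are given on GRCh38. Symbols were matched to 36 members and to further lists, all chosen with earlier results of these data known.

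Values were transformed to log2(FPKM + 1), which understates differences of genes at low values. The 14909 genes with a mean of at least 1 FPKM in at least 1 group were tested with limma 3.58.1 in R 4.3.3 (empirical Bayes with trend, group as the only term, 4 libraries), with two-sided p-values, a Benjamini-Hochberg adjustment over all of them and a threshold of 0.05. The fit was tested on simulated data with independent noise and no effect of replicate number. The planted differences were larger than that of any member, so this test does not speak to differences of their size. With 2 libraries in each group, the smallest two-sided p of an exact permutation test is 0.333, so none was used. Named genes are all 36 members by role and, of each further list, up to 4 taken in order of the smallest p; PDK4 and the marker genes named were chosen after their values were seen. Relative depth was estimated from the steps between low values of single-exon genes, of which 50.4% to 81.5% lay on a step within 0.01 (log2), so no counts were recovered. Sequence windows are RefSeq promoters on GRCh38.p14. Alternatives were a replicate block, other filters, a pseudocount of 0.1, quantile and upper-quartile scaling, no trend, the removal of each library, and, chosen after seeing the data, a correction for transcript GC content. Tests planned for counts were not run, as the table holds none.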

Additional observations from a re-analysis of the deposited data

How the results depend on the processing

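Of the 35 tested members, 22 kept the sign of their difference under all 13 alternatives and EGLN3 and ANKRD37 under the 12 that could be run for them, since they were under the 5 FPKM filter; 26 of 453 comparisons reversed a sign. Pairing by replicate number was not given by the labels. Libraries of the same number deviated together from their group means (Pearson's r of 0.53 across 14909 genes), but 2 pairs do not establish a pairing. With the replicate number as a block, 7 members passed the adjusted threshold in place of 0 (SLC2A1, HK2, ALDOA, GAPDH, PKM and LDHB higher with SB, EPAS1 lower), as did 13 genes of the other lists in place of 0 and 1564 of all genes in place of 20. With a correction for transcript GC content, added after seeing the data, these counts were 0, 1 and 178, and with this correction and the replicate block they were 9, 17 and 1604. Without a filter on low values 0 of all genes passed, with 2739 at an unadjusted limma p under 0.05, and with quantile normalization 31 passed. Leaving out 1 library gave 0 to 14 of all genes, with 0 without DMSO replicate 1 (1168 at an unadjusted p under 0.05), 10 without SB replicate 1 and 9 without SB replicate 2, and 0 to 0 members and genes of the other lists. In these fits the lone library of a group is assumed to vary like the other group.

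The median difference of the members, 0.064, was 0.051 without a filter, 0.038 when 5 FPKM were required in 2 libraries, 0.022 with quantile normalization, 0.021 with upper-quartile scaling and 0.090 with the GC correction, alone or with the replicate block. It ran from 0.033 to 0.080 when 1 library was left out, the lowest without SB replicate 2.

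Among single genes, HK1 went to -0.000020 with quantile normalization and -0.0056 with upper-quartile scaling, PFKFB4 to -0.0024 and -0.026, and SLC16A3 to -0.013 with upper-quartile scaling. PDK2 went to 0.000315 with the GC correction, alone or with the replicate block. When 1 library was left out, differences ran from -0.132 to 0.019 for SLC2A3, -0.053 to 0.129 for HK1, -0.497 to 0.625 for PFKL, -0.721 to 0.145 for PFKP, -0.291 to 0.023 for SLC16A1, -0.311 to 0.371 for SLC16A3, -0.048 to 0.074 for PFKFB4, -0.202 to 0.119 for PDK1, -0.156 to 0.103 for PDK2, -0.228 to 0.365 for HIF1A and -0.250 to 0.050 for EGLN1. In all, 27 of 35 members moved by over 1.5 times without 1 library, 16 of them with the same sign; the 8 that did not were HK2, ALDOA, PGAM1, ENO1, PKM, EPAS1, EGLN3 and BNIP3. Beside SLC2A1, GAPDH and PFKFB3, the 16 include TPI1 (0.062 without SB replicate 2 to 0.425 without SB replicate 1), PGK1 (0.048 without DMSO replicate 1 to 0.268 without DMSO replicate 2) and NDRG1 (-0.883 without SB replicate 1 to -0.411 without SB replicate 2). The cause of these shifts was not tested. Absolute depth is unknown, so counting error of genes at low FPKM, such as EGLN3 and ANKRD37, could not be given.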
